A study of Mus musculus with 16 samples.

Results

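Sod1, Sod2, Gclc, Gclm, Ephx1, Ephx2, Cat, Nqo1, Prdx1 and Prdx6 are 10 genes of the liver's defence against superoxide, hydrogen peroxide, quinones and epoxides. They were picked by gene symbol, as 10 of the 20826 symbols in a table of liver transcripts, and all 10 were present in it. Of the 10 genes, 5 had enough tags to be tested (Sod1, Sod2, Ephx1, Gclc and Cat). The other 5 (Ephx2, Gclm, Nqo1, Prdx1 and Prdx6) are described by their tags alone.

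Livers came from 16 male C57BL/6J mice, recorded as 4 weeks old and fed for 18 weeks on 1 of 4 diets, with 4 mice in each group. The N group ate a normal diet (D12450B, 10% fat) and the HF group a high-fat diet (D12451, 45% fat). The NW group ate the normal diet and the HFW group the high-fat diet, each with 1% WEPAK. WEPAK is an extract of Pacific krill that dissolves in water. Transcripts were counted by SuperSAGE, which sequences a short tag beside a CATG site, where the enzyme NlaIII cuts, in each captured cDNA.

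Superoxide dismutases turn superoxide into hydrogen peroxide, and Sod1 works mainly in the cytosol while Sod2 works in the mitochondrial matrix. Catalase (Cat) in peroxisomes and the peroxiredoxins Prdx1 and Prdx6 break down peroxides, and Gclc and Gclm are the catalytic and modifier subunits of the enzyme that limits glutathione synthesis. Ephx1, in the endoplasmic reticulum, hydrolyses epoxides of foreign compounds, Ephx2 hydrolyses epoxides of fatty acids, and Nqo1 reduces quinones. The liver is rich in these enzymes, and several of their genes are known targets of the transcription factor Nrf2.

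Since the method reads 1 short window of each transcript, the windows show what was counted for each gene. The sequences here run from the CATG site nearest the 3′ end of the GENCODE M21 transcript matched to each gene (GRCm38), for 26 bases, a length chosen here because the labels give none. Capitals mark the NlaIII site, and the 5 tested genes come before Ephx2.
Sod1: CATGagaaacaagatgacttgggcaa
Sod2: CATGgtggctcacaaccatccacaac
Ephx1: CATGgctttaatgataaatgggttta
Gclc: CATGaaatgcactaatttttgtgaat
Cat: CATGgtgtctgtctttggatggcctg
Ephx2: CATGgaaaagtggatccctttcctga
The Sod1 window lies at chr16:90226153-90226178 on the plus strand, in the coding part of exon 5 of 5. The Ephx1 window lies at chr1:180989563-180989588 on the minus strand, in the 3′ UTR in exon 9 of 9. The Gclc window is at chr9:77794130-77794155 (plus strand, 3′ UTR, exon 16 of 16) and the Cat window at chr2:103453873-103453898 (minus strand, 3′ UTR, exon 13 of 13). For Ephx2 the last site is in coding sequence, and its window starts in exon 17 of 19 and runs over a splice junction (chr14:66084977-66085308, minus strand).

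Sod2 differs from the other tested members in its window, which lies in the 3′ UTR at chr17:13020024-13020049 on the plus strand, in exon 5 of 5. The same 26 bases were found in the transcripts of 1 other gene, and transcripts of 16 other genes matched within 1 mismatch. Its first 20 bases occurred in transcripts of 529 other genes, while those of Sod1, Ephx1, Gclc and Cat occurred in 0. Of 997 tested genes with a window, 92.3% shared the first 20 bases with 0 other genes and 10 (1.00%) shared them with 100 or more, Sod2 among them. How the authors treated tags found in several transcripts is not given in the sources used here, so every value printed for Sod2 may include tags of other genes. Of the 10 widely shared genes, 2 were lower (Sod2 among them) and 3 higher with WEPAK over both diets, at the threshold used for the members. Of all tested genes, 16.1% were lower and 15.2% higher there. The part of shared tags in the Sod2 result was not tested.

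Libraries held 56684 to 149464 tags, so that 1 tag stands for 6.70 to 17.7 counts per 1000000 tags in named genes before scaling. CPM here means counts per 1000000 tags with the library size scaled by TMM. The HF libraries were the deepest group, with a mean of 118882 tags in named genes against 74198 to 75963 in the other 3 groups. On principal component 1, from the 500 tested genes with the highest variance, N mouse 4 scored -16.5, below all 4 HF mice, and N mouse 8 scored 4.88, while the other N mice scored -4.13 and -1.18. All 11 hepatocyte marker genes in the table had tags, and their summed level ran from 88650 to 107977 CPM in NW, 60507 to 91536 CPM in N, 53733 to 67297 CPM in HF and 50718 to 84236 CPM in HFW. Among these markers, Cyp2e1 shares the first 20 bases of its window with 529 other genes, so the sum may include their tags. The part of this shift in hepatocyte markers in the results for the members was not tested. Markers of neutrophils (5) and adipocytes (5) were at 0 tags in all 16 libraries. In whole liver, fewer cells of a type and less RNA per cell cannot be told apart.

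In mice fed WEPAK, Sod1 was higher, and Sod2, Ephx1 and Gclc were lower, while Cat did not pass the test. With both diets averaged, Sod1 was 1.67-fold higher, Sod2 3.92-fold lower, Ephx1 2.06-fold lower and Gclc 1.52-fold lower. Thus 4 of the 5 tested members passed (adjusted p under 0.05, by the quasi-likelihood test of edgeR, adjusted over 1046 genes after Benjamini and Hochberg), 1 higher and 3 lower. In this comparison 31.3% of all tested genes passed, 15.2% higher and 16.1% lower. The median log2 fold change was -0.61 over the 5 members and 0.03 over all tested genes. The members were chosen with earlier results of these data known, so these shares do not show that defence genes responded more often than others. Ephx1 was also the gene with the smallest p of all tested genes for the effect of the high-fat diets averaged over both WEPAK states, where it was higher, and it ranked 19 by p in HF against N alone, where it did not pass.

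**Figure D1:**
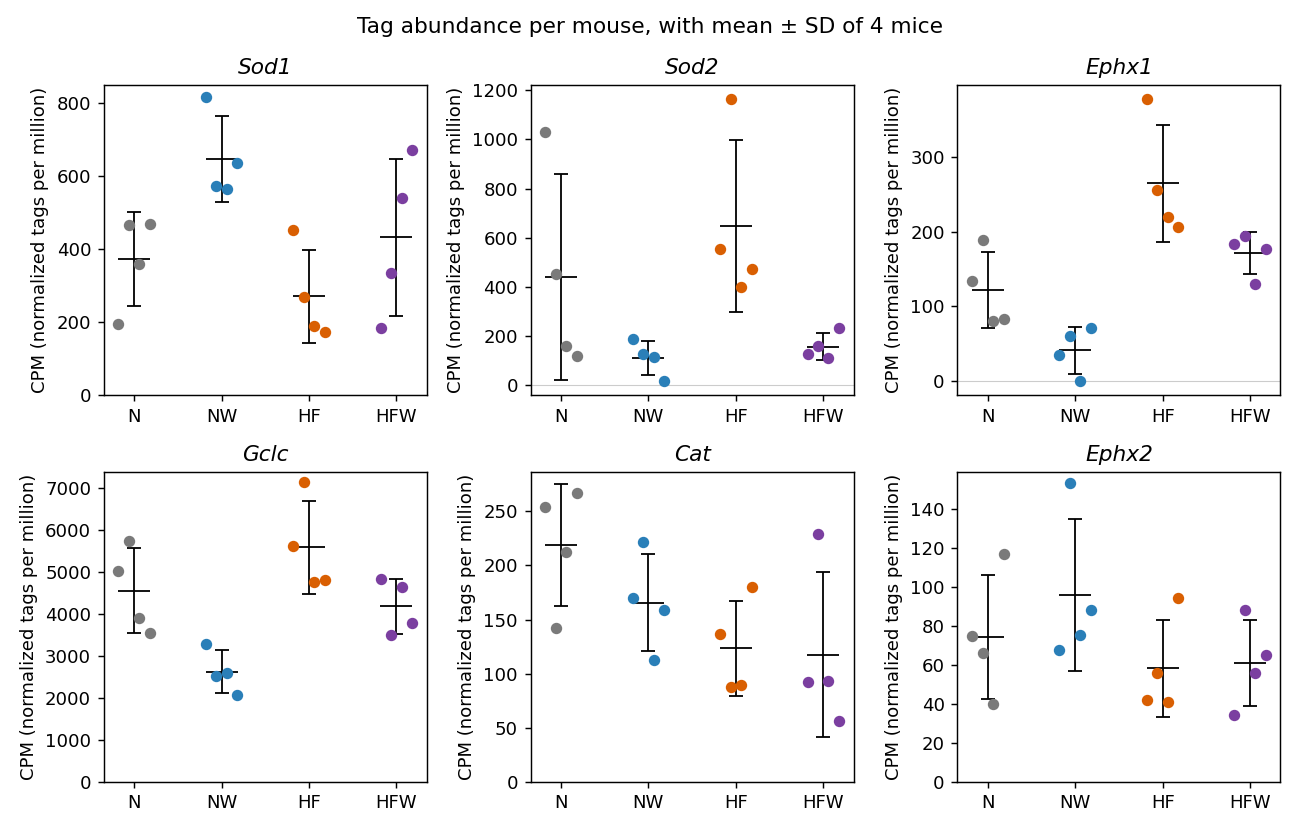
Tag level in CPM (y axis) of Sod1, Sod2, Ephx1, Gclc, Cat and Ephx2 in each of the 16 mice, by group (x axis), where points are mice and the bar and whiskers are the mean and SD of 4 mice. The 4 HF mice lie above the 4 N mice for Ephx1, the 4 HFW mice lie below the 4 HF mice for Sod2, and the 4 NW mice lie above the 4 N mice for Sod1.

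Sod1, the cytosolic dismutase, was counted 563 times over the 16 libraries. In N mice 4, 5, 7 and 8 it had 194, 464, 359 and 467 CPM, and in NW mice 11, 12, 15 and 20 it had 815, 570.5, 565 and 634 CPM. In HF mice 23, 25, 28 and 29 it had 451, 268, 187 and 171 CPM, and in HFW mice 34, 36, 38 and 40 it had 184, 334, 539 and 669 CPM. All 4 NW mice were above all 4 N mice, whereas HFW and HF overlapped because HFW mouse 34 was as low as the lower HF mice and HF mouse 23 was above HFW mice 34 and 36. Groups did not overlap for 15.4% of all tested genes in NW against N.

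The mean level of Sod1 was 646 ± 117 CPM in NW, 432 ± 215 CPM in HFW, 371 ± 128 CPM in N and 269 ± 128 CPM in HF (SD, n = 4 each). In that order the neighbours HFW and N, and N and HF, overlapped widely, and HFW mouse 40 and NW overlapped too. The mean WEPAK effect was a log2 fold change of 0.74 (SE 0.25, adjusted p = 0.0232 by edgeR's quasi-likelihood test), and 7 of 8 WEPAK-fed mice lay above the mean of their own diet without WEPAK. Neither diet passed alone, with 0.78 in NW against N (adjusted p = 0.143, edgeR) and 0.71 in HFW against HF (adjusted p = 0.185, edgeR). The call for Sod1 was the least stable of the 4. It was lost when N mouse 4 (0.63, adjusted p = 0.0547), HF mouse 29 (0.66, adjusted p = 0.0518), HFW mouse 38 (0.69, adjusted p = 0.0503) or HFW mouse 40 (0.59, adjusted p = 0.0843) was left out of the edgeR fit, and the direction stayed the same in all 16 such fits.

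Sod2, the mitochondrial dismutase, had about as many tags as Sod1 (564) and the opposite pattern. N mice 4, 5, 7 and 8 had 1029.6, 454, 159 and 117 CPM, and NW mice 11, 12, 15 and 20 had 187, 128, 113 and 17.6 CPM. HF mice 23, 25, 28 and 29 had 556, 1165, 399 and 471 CPM, and HFW mice 34, 36, 38 and 40 had 126, 158, 112 and 232 CPM. All 4 HFW mice lay below all 4 HF mice (15.9% of all tested genes did not overlap in that comparison), while NW mouse 11 lay above N mice 7 and 8. NW mouse 20 had 1 Sod2 tag.

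In HFW against HF, Sod2 was the 1 member of 5 that passed, against 9.85% of all tested genes (4.21% higher and 5.64% lower). Its mean was 157 ± 53.8 CPM in HFW and 648 ± 351 CPM in HF (SD, n = 4), a log2 fold change of -2.00 (SE 0.59, adjusted p = 0.0420 by edgeR's quasi-likelihood test). The call was lost without any single one of HF mice 23 and 25 and HFW mice 34, 36, 38 and 40 (log2 fold changes of -2.34 to -1.53, adjusted p up to 0.145 by edgeR). N and NW had 440.1 ± 421 and 111 ± 70.1 CPM, a log2 fold change of -1.95 (SE 0.66) that did not pass (adjusted p = 0.0635, edgeR), and without N mouse 4, the highest of that group, it was -1.19 (adjusted p = 0.248, edgeR). It passed in the edgeR fits with no filter (adjusted p = 0.000510), not robust (0.0225), without N mouse 7 (0.0383) or without N mouse 8 (0.0269), and by the DESeq2 Wald test (adjusted p = 0.0490). It also passed without HF mouse 25 (adjusted p = 0.0443, edgeR), which is outside this comparison but part of the joint fit. Over both diets the log2 fold change was -1.97 (SE 0.44, adjusted p = 0.00348, edgeR quasi-likelihood), with 8 of 8 WEPAK-fed mice below the mean of their diet. That call held in 16 of 16 fits with 1 mouse left out (-2.11 to -1.60, adjusted p up to 0.0134 by edgeR).

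Since both dismutases were counted in the same libraries, their ratio in a mouse does not depend on library size. The Sod1 to Sod2 tag ratio was 0.188, 1.02, 2.25 and 4 in the N mice, and 4.36, 4.47, 5 and 36 in the NW mice. It was 0.811, 0.230, 0.469 and 0.364 in the HF mice and 1.45, 2.11, 4.83 and 2.88 in the HFW mice. Every WEPAK-fed mouse had more Sod1 than Sod2 tags, as had N mice 5, 7 and 8, and every HF mouse had fewer. Within each diet the groups with and without WEPAK did not overlap. On the normal diet the nearest mice were N mouse 8 (28 Sod1 and 7 Sod2 tags) and NW mouse 11 (48 and 11 tags). The ratio of 36 in NW mouse 20 rests on 1 Sod2 tag. How many other gene pairs separate in this way was not counted. The ratio is given with no test, because it combines results already described, and it carries the limit of the shared Sod2 window.

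The promoters of both dismutase genes are shown as a description, since the counted levels of the 2 genes moved in opposite directions with WEPAK. Each sequence holds the 250 bases before the RefSeq start site (GRCm38.p6, plus strand), for Sod1 chr16:90220512-90220761 and for Sod2 chr17:13007589-13007838. Capitals mark GC boxes (GGGCGG on either strand, overlaps included), the motif bound by Sp1.
Sod1: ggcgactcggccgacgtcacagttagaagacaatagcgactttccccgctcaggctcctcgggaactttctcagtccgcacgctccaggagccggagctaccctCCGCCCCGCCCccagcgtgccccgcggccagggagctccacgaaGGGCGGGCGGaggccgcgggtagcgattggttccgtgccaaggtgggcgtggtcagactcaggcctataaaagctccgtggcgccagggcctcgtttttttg
Sod2: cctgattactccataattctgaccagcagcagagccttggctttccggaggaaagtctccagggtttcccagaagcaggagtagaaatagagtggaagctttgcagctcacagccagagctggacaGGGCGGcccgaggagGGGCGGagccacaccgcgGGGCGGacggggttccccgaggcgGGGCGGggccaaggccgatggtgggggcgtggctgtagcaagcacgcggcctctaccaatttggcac
Both promoters held 4 GC boxes. Over the window from 250 bases before to 50 after the start, all 7 members with a RefSeq promoter entry (Sod1, Sod2, Ephx1, Cat, Gclm, Nqo1 and Prdx1) held at least 1, against 35.7% of 32851 entries. The core of the antioxidant response element, TGACNNNGC on either strand, the motif bound by Nrf2, was in 3 of the 7 (Sod1, Gclm and Prdx1), against 12.4% of all entries. In Sod1 it began 56 bases before the start, on the minus strand, and did not overlap a GC box. The Sod2, Ephx1 and Cat windows did not hold these letters, which says nothing of the factor at other sites. Gclm and Prdx1, which held them, had only 8 and 7 tags in all. A part of these motifs in the changes with WEPAK was not tested.

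Ephx1, the microsomal epoxide hydrolase, was the member that differed most between diets. HF mice 23, 25, 28 and 29 had 378, 255, 219.9 and 206 CPM, and N mice 4, 5, 7 and 8 had 134, 189, 79.7 and 83.5 CPM. HFW mice 34, 36, 38 and 40 had 184, 194, 130.1 and 177 CPM, and NW mice 11, 12, 15 and 20 had 33.9, 59.6, 0 and 70.4 CPM. Ephx1 was not detected in NW mouse 15, where 0 tags allow a level of up to 56.5 CPM (3 tags, counting error only).

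The 4 group means of Ephx1 were 265 ± 78.2 CPM in HF, 171 ± 28.1 in HFW, 122 ± 51.5 in N and 41.0 ± 31.3 in NW (SD, n = 4). Neighbouring groups in this order overlapped only between HFW and N. Groups were fully separated for Ephx1 in HF against N (2.96% of all tested genes), in HFW against NW (8.80%), in HFW against HF (15.9%) and in NW against N (15.4%). In every one of the 4 comparisons Ephx1 counts were small, with 13 tags in all in NW and 128 in HF.

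With both WEPAK states averaged, Ephx1 was higher on the high-fat diets by 1.49 on the log2 scale (SE 0.30, adjusted p = 0.0221 by edgeR's quasi-likelihood test), a fold of 2.82. All 8 mice on high-fat diets lay above the mean of the matching normal-diet group. Of the 5 tested members Ephx1 alone passed, against 0.574% of all tested genes, 6 of 1046 (0.287% higher and 0.287% lower). By diet pair the log2 fold change was 1.05 in HF against N (SE 0.36, adjusted p = 0.352, edgeR) and 1.94 in HFW against NW (SE 0.48, adjusted p = 0.176, edgeR). Neither passed, and Ephx1 had the smallest p of all tested genes in HFW against NW. Of all tested genes 0.0956% passed in HF against N and 0% in HFW against NW, where 126 had an unadjusted p under 0.05.

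The averaged call for the high-fat diets was lost without N mouse 7 (adjusted p = 0.0552), NW mouse 11 (0.0501), NW mouse 15 (0.0549) or HF mouse 23 (0.0627) in the edgeR fit, with log2 fold changes of 1.35 to 1.68 over all 16 fits with 1 mouse left out. The HF libraries were the deepest, and with all libraries thinned to the smallest total, by a single random draw of tags, the value was 1.33 (adjusted p = 0.0650, edgeR).

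Ephx1 was lower with WEPAK over both diets, with a log2 fold change of -1.04 (SE 0.30, adjusted p = 0.0102 by edgeR's quasi-likelihood test) and 8 of 8 WEPAK-fed mice below the mean of their diet. The call held in 16 of 16 fits with 1 mouse left out (adjusted p up to 0.0434, edgeR), and with thinned libraries it was -0.87 and did not pass (adjusted p = 0.0726, edgeR). In NW against N the log2 fold change was -1.48 (SE 0.49, adjusted p = 0.0496, edgeR), 1 of 2 members that passed there, against 11.0% of all tested genes (3.63% higher and 7.36% lower). It passed under 2 of 10 other settings and in 2 of 8 fits that left out 1 of these mice, and without NW mouse 15 it was -1.10 (adjusted p = 0.165, edgeR). In HFW against HF it was -0.60 (adjusted p = 0.269, edgeR). The difference between the WEPAK effects in the 2 diets was 0.89 (SE 0.61, adjusted p = 0.997, edgeR), and no member and 0% of all tested genes passed for that difference, with 26 genes at an unadjusted p under 0.05.

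**Figure D2:**
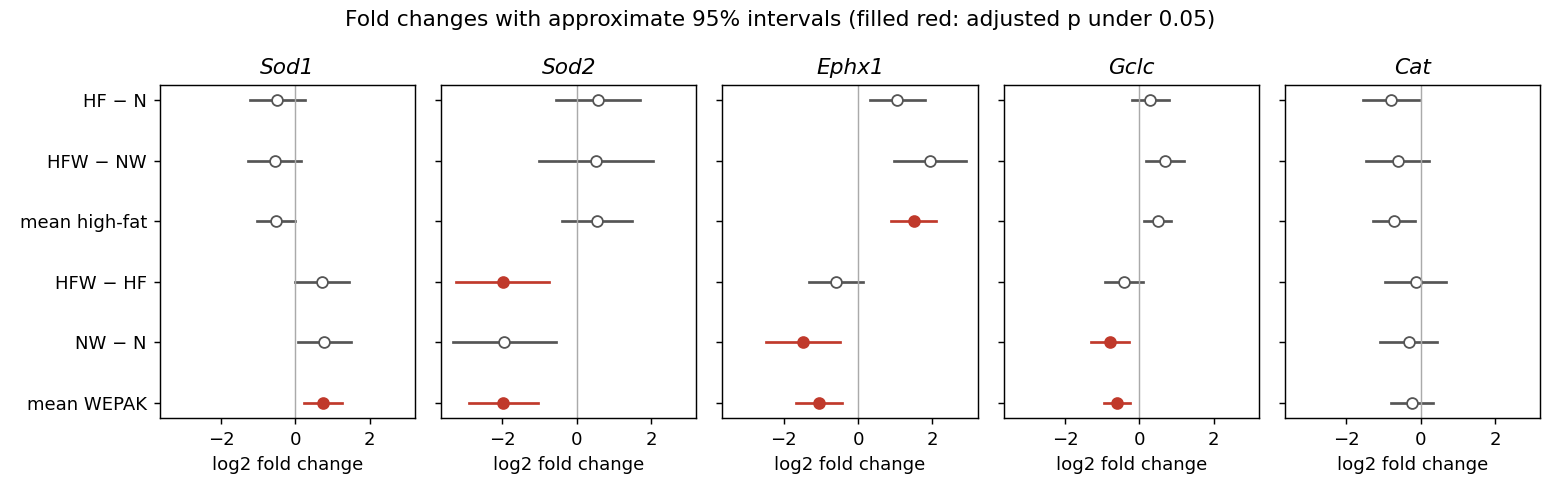
Log2 fold change (x axis) of the 5 tested members in 6 comparisons, with approximate 95% intervals. The intervals are not adjusted for the number of genes tested. Those of Ephx1 lie above 0 for both high-fat comparisons, where it did not pass, and for their mean. For the mean WEPAK effect those of Sod2, Ephx1 and Gclc lie below 0 and that of Sod1 above 0. Other intervals exclude 0 where the gene did not pass, such as Cat in HF against N (-1.56 to -0.06) and Gclc in HFW against NW (0.18 to 1.20).

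Ephx2, the epoxide hydrolase that acts on fatty acid epoxides, had 100 tags in all and fell below the filter. It had 96.1 ± 39.0 CPM in NW, 74.4 ± 31.9 in N, 60.8 ± 22.2 in HFW and 58.2 ± 25.0 in HF (SD, n = 4), and every pair of groups overlapped. In a fit of all 10171 genes with at least 1 tag, its log2 fold change was -0.44 (SE 0.37, adjusted p = 0.938, edgeR) for the mean high-fat effect and 0.15 (SE 0.38, adjusted p = 1.000, edgeR) for the mean WEPAK effect. Whether Ephx2 differed from Ephx1 was not tested.

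Gclc, the catalytic subunit of glutamate-cysteine ligase, was by far the most abundant of the 10 members, with 6300 tags and rank 26 among all symbols by mean CPM. N mice 4, 5, 7 and 8 had 5014, 5747, 3907 and 3556 CPM, and NW mice 11, 12, 15 and 20 had 3293, 2529, 2597 and 2059 CPM. HF mice 23, 25, 28 and 29 had 5612, 7138, 4773 and 4815 CPM, and HFW mice 34, 36, 38 and 40 had 4833, 3486, 4648 and 3773 CPM. All 4 NW mice lay below all 4 N mice and below all 4 HFW mice, whereas HFW mouse 34 lay above the 2 lowest HF mice. Of all tested genes, 15.4% did not overlap in NW against N and 8.80% in HFW against NW.

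The mean level of Gclc was 2619 ± 509 CPM in NW and 4556 ± 1008 CPM in N (SD, n = 4), a log2 fold change of -0.80 (SE 0.25, adjusted p = 0.0335 by edgeR's quasi-likelihood test). This call passed in 1 of 8 fits with 1 of these mice left out, the one without N mouse 8, and the log2 fold changes over the 8 fits were -0.87 to -0.63. HFW and HF had 4185 ± 656 and 5584 ± 1105 CPM, a log2 fold change of -0.41 that did not pass (adjusted p = 0.276, edgeR). Averaged over both diets the WEPAK effect was -0.61 (SE 0.18, adjusted p = 0.00982, edgeR quasi-likelihood), with 8 of 8 WEPAK-fed mice below the mean of their diet. It passed in 16 of 16 fits with 1 mouse left out and in all 10 other settings tried. For the mean high-fat effect Gclc had 0.49 (SE 0.18, adjusted p = 0.115, edgeR), with 8 of 8 mice above the matching mean, and by the DESeq2 Wald test it passed (0.50, adjusted p = 0.0490).

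Gclm, the modifier subunit of the same enzyme, had 8 tags against the 6300 of Gclc, 2 in each group. Its window is given for comparison with that of Gclc.
Gclm: CATGatggctcacaaccatttgtaca
It lies in the 3′ UTR at chr3:122270661-122270686 on the plus strand, in exon 7 of 7, and transcripts of 3 other genes matched it within 1 mismatch. Differences in Gclm were not detectable at this depth, so the 2 subunits cannot be compared across diets. SuperSAGE counts 1 window for each transcript and its counts are not divided by length. How well each window was captured was not tested.

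Cat, the peroxisomal catalase, had 206 tags. N mice 4, 5, 7 and 8 had 254, 142, 213 and 267 CPM and NW mice 11, 12, 15 and 20 had 169.7, 221, 113 and 158 CPM. HF mice 23, 25, 28 and 29 had 136, 87.2, 89.6 and 179.9 CPM and HFW mice 34, 36, 38 and 40 had 91.8, 229, 93.0 and 55.8 CPM. The groups overlapped in each of the 4 comparisons.

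For the mean WEPAK effect Cat had a log2 fold change of -0.23 (SE 0.28, adjusted p = 0.571 by edgeR's quasi-likelihood test), with a 95% interval of -0.80 to 0.33. With the high-fat diets it had -0.72 (SE 0.28, adjusted p = 0.153, edgeR), and 7 of 8 mice lay below the mean of the matching normal-diet group. Cat was the 1 tested member for which neither averaged effect passed. The interval for WEPAK includes the size of the Gclc change, so the 2 genes are not shown to differ.

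Nqo1, Prdx1 and Prdx6 were close to the limit of detection. Prdx1 had 7 tags (3 in HF, 2 in NW and 1 each in N and HFW), and Nqo1 and Prdx6 had 2 tags each, 1 in N and 1 in HFW. Summed over the group, 0 tags in NW allow up to 10.5 CPM and 0 tags in HF up to 6.06 CPM (3 tags, counting error only). For these 3 genes no difference was detectable at this depth, and how well their windows were captured or matched was not tested. Their windows, shown because the genes were almost uncounted, each had 0 other genes with the same first 20 bases.
Nqo1: CATGgcgcccagggggttggctctcc
Prdx1: CATGgaacagaatttttgcttcttag
Prdx6: CATGccctatgccatcagctttgatg
They lie in 3′ UTRs at chr8:107388349-107388374 (minus strand), chr4:116700746-116700771 (plus strand) and chr1:161240149-161240174 (minus strand).

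Across the 16 mice, Gclc followed Sod2 (Pearson r = 0.83, Spearman rho = 0.74, log2 CPM, n = 16) and Ephx1 (r = 0.75, rho = 0.77). Sod2 and Ephx1 had r = 0.55 and rho = 0.67. Sod1 ran against all 3, with r = -0.53 for Sod2, -0.52 for Ephx1 and -0.57 for Gclc. Cat had r between -0.29 and -0.03 with the other 4. These values describe mice that share the 4 group differences and their library depths, and they carry no test.

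Of all tested genes, the 3 whose log2 CPM was most like that of Sod1 over the 16 mice were Cdo1, which oxidises cysteine (r = 0.87), Ttr, transthyretin (r = 0.87), and Serpina1c, an antitrypsin (r = 0.85). Ttr and Serpina1c are 2 of the hepatocyte markers whose summed level is given above. Sod2 was most like Cdc34, a ubiquitin-conjugating enzyme (r = 0.91), Lcat, which esterifies plasma cholesterol (r = 0.90), and Hgfac, a serine protease (r = 0.89). Ephx1 was most like Ctbs, a lysosomal chitobiase (r = 0.94), Aldh5a1, succinic semialdehyde dehydrogenase (r = 0.93), and Exosc7, an exosome subunit (r = 0.92). The first 20 bases of the window occurred in 0 other genes for all 9 of them.

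**Figure D3:**
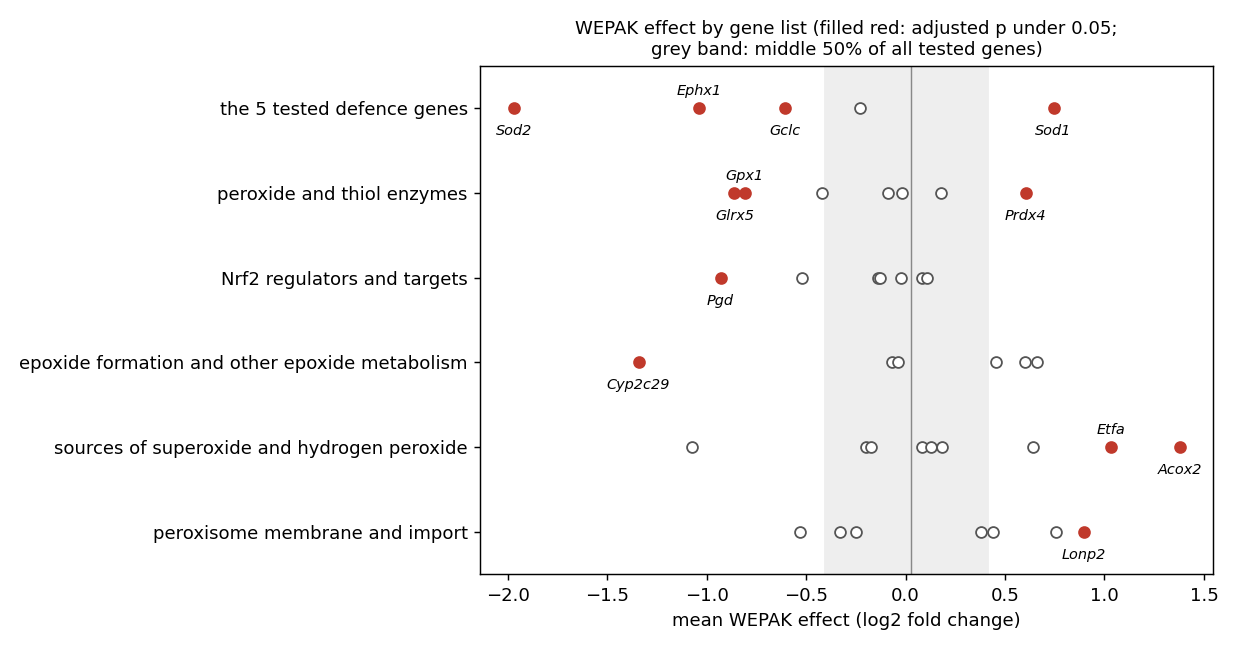
Mean WEPAK effect (log2 fold change, x axis) of each tested gene in the 5 members and in 5 lists of related genes (y axis), with genes past an adjusted p of 0.05 filled red and named, the grey band holding the middle 50% of all tested genes and the grey line their median. The named genes lie on both sides of 0, with Sod2 (-1.97) lowest and Acox2 (1.38) highest.

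Around the members, other peroxide and thiol enzymes changed in both directions with WEPAK. Of 38 genes on that list 7 could be tested, and for the mean WEPAK effect 1 was higher and 2 were lower, with a median log2 fold change of -0.09 (0.03 over all tested genes, 31.3% of which passed). Gpx1, the main cytosolic glutathione peroxidase, ran from 1317 to 2103 CPM in NW and 2760 to 3872 CPM in N, and from 1779 to 2398 CPM in HFW and 1645 to 5066 CPM in HF. It was lower with WEPAK by a log2 fold change of -0.81 (adjusted p = 0.00323, edgeR). The NW and N mice did not overlap, as for 15.4% of all tested genes. Glrx5, a mitochondrial glutaredoxin that serves iron-sulfur cluster assembly, was lower with WEPAK (-0.86, adjusted p = 0.00317, edgeR) and higher with the high-fat diets (0.94, adjusted p = 0.0291, edgeR), as was seen for Ephx1. Both averaged effects rest on the same 16 mice. Prdx4, the peroxiredoxin of the endoplasmic reticulum, was higher with WEPAK (0.60, adjusted p = 0.0444, edgeR).

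Among 38 regulators and targets of Nrf2 outside the 10 members, 7 were tested, with a list median of -0.13. For the mean WEPAK effect 1 passed, against 31.3% of all tested genes. This was Pgd, a dehydrogenase of the pentose phosphate pathway that makes NADPH (-0.93, adjusted p = 0.0147, edgeR), which ran from 67.9 to 207 CPM in NW against 100.2 to 612 CPM in N, and from 176 to 505 CPM in HFW against 325 to 635 CPM in HF. Both pairs of groups overlapped. The other 6 (Gsta3, Gstp1, Abcc2, Abcc3, Akr7a5 and Nqo2) did not pass in any comparison.

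Enzymes that form or handle epoxides were represented by 6 tested genes of 29. For the mean WEPAK effect 1 passed, against 31.3% of all tested genes. Cyp2c29, a cytochrome P450 that makes epoxides of fatty acids, was lower with WEPAK (-1.34, adjusted p = 0.00682, edgeR), with 158 to 417 CPM in NW against 412 to 890.0 CPM in N, and 74.4 to 458 CPM in HFW against 171 to 1021 CPM in HF. Thus an epoxide-forming gene and Ephx1 were both lower in mice fed WEPAK, while the list median was 0.21 and 3 of its 6 tested genes were positive. Cyp2c29 did not pass in HFW against HF (adjusted p = 0.0574, edgeR) or in NW against N (adjusted p = 0.112, edgeR). It shares the first 20 bases of its window with 1 other gene. Cyp2c44, Cyp2e1, Por, Gstt1 and Mgst1 did not pass, and Cyp2e1 has a widely shared window, as Sod2 has.

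Of 34 genes for sources of superoxide and hydrogen peroxide, 9 were tested, with a list median of 0.13 for the mean WEPAK effect. There 2 passed, both higher, against 31.3% of all tested genes (15.2% higher and 16.1% lower). Acox2, the peroxisomal oxidase of branched-chain and bile acid intermediates, which releases hydrogen peroxide, ran from 367 to 511 CPM in HFW and 105 to 239.9 CPM in HF, and from 349 to 645 CPM in NW and 119 to 351 CPM in N. It was higher over both diets (1.38, adjusted p = 7.76e-05, edgeR), in HFW against HF (1.44, adjusted p = 0.00537) and in NW against N (1.31, adjusted p = 0.0126). Etfa, a subunit of the flavoprotein that passes electrons from fatty acid oxidation to the respiratory chain, was higher as well (1.03, adjusted p = 0.000346, edgeR), with 7578 to 12713 CPM in NW and 2805 to 6745 CPM in N.

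From 33 peroxisome membrane and import genes 7 were tested, and for the mean WEPAK effect 1 passed, against 31.3% of all tested genes. The list median was 0.38. Lonp2, the peroxisomal Lon protease, was the gene that passed (0.90, adjusted p = 0.000683, edgeR). It ran from 1527 to 2621 CPM in HFW and 803 to 1336 CPM in HF. Catalase, the peroxisomal member, thus did not pass while Acox2 and Lonp2 were higher. Whether Cat differed from them was not tested.

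**Figure D4:**
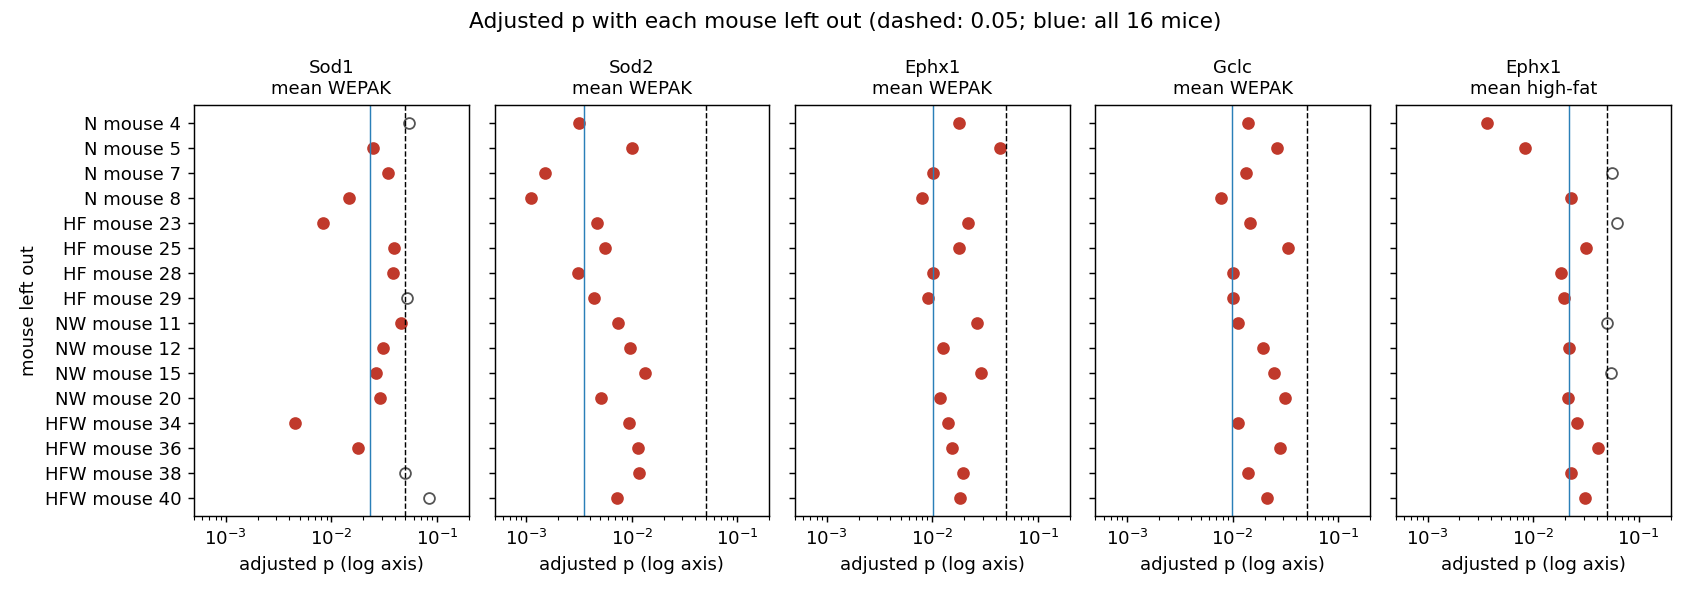
Adjusted p (log x axis, dashed line at 0.05) with each of the 16 mice left out in turn (y axis). Panels show Sod1, Sod2, Ephx1 and Gclc for the mean WEPAK effect and Ephx1 for the mean high-fat effect. All points of Sod2, Ephx1 and Gclc lie left of the line for WEPAK. For Sod1, 4 points lie right of it, as do 4 for Ephx1 with the high-fat diets.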

How the data were processed

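SuperSAGE tag counts of 16 livers were read from the table the authors deposited, which holds raw counts for each RefSeq entry and mouse, per the file headers. Per the labels' protocols, cDNA from total RNA was cut with NlaIII and EcoP15I, indexed and amplified by PCR. How tags were matched, to which RefSeq release, and any molecular identifiers: not given in the sources used here. So PCR copies cannot be told from molecules, and limits cover counting error only. No preparation batch is named.

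From 26782 rows, 417 without a symbol (0.0729% of tags) were left out and the rest summed per symbol. Libraries of a group were checked for duplicates (chi-square per degree of freedom 2.93 to 15.0). edgeR 4.0.16 (R 4.3.3) was run with TMM scaling, the default filter (minimum count 10, 1046 genes kept), a robust fit (quasi-likelihood) to the 16 libraries together and Benjamini-Hochberg adjustment over all tested genes at 0.05. CPM uses the TMM-scaled library size and log2 CPM a prior count of 2. Standard errors and intervals are approximate. p-values measure the spread between mice, each library being a separate mouse. The code was tested on simulated data.

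Members and lists were chosen with earlier results of these data known. Named were the 10 members, up to 6 list genes past the threshold for each list, and the 3 genes most like Sod1, Sod2 and Ephx1. Markers of macrophages, endothelial and stellate cells, cholangiocytes, lymphocytes and red blood cells were also summed. Alternatives included limma 3.58.1 (voom) and DESeq2 1.42.0.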

Additional observations from a re-analysis of the deposited data

How the results depend on the processing

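Counts are of tested members past an adjusted p of 0.05. All 5 were tested except with the compared groups alone, and all 10 with no filter. No result changed direction past the threshold under any setting. Over both diets WEPAK gave 4 members, 3 to 4 with 1 mouse left out and 2 with all libraries thinned to the smallest total, where Sod1 (0.58, adjusted p = 0.0980 by edgeR) and Ephx1 were lost. Sod1 was also lost with no filter (0.60, adjusted p = 0.171, 10171 genes tested, edgeR) and without N mice 4 and 8 (0.63, adjusted p = 0.0773, edgeR). The mean high-fat effect gave 1, 0 to 1 with 1 mouse left out and 0 with thinning, and the DESeq2 Wald test gave no adjusted p for Ephx1 and Cat there. HFW against HF gave 1, 0 to 1 with 1 mouse left out, and 0 with thinning or with at least 10 tags in 4 libraries (Sod2 -1.99, adjusted p = 0.0559, edgeR). NW against N gave 2, 0 to 3 with 1 mouse left out, 0 with thinning or without N mice 4 and 8, and 1 with DESeq2 size factors, at least 10 tags in 4 libraries, limma-voom or the compared groups alone (Gclc each time) or with no filter (Sod2, with Gclc and Ephx1 lost). The count stayed at 2 with the DESeq2 Wald test and with a fit that was not robust, where the members were Gclc and Sod2 and not Ephx1. With the compared groups alone, Ephx1 was not tested in NW against N, Cat in HFW against HF, and Sod2, Ephx1 and Cat in HFW against NW. HF against N, HFW against NW and the difference of the WEPAK effects gave 0 under every setting. Thinning, leaving out N mice 4 and 8 and leaving out the 10 most abundant genes were chosen after seeing the data. The cause of these changes was not tested, and thinning changed both the depth and the number of genes tested (778). Thinning was a single random draw of tags, and how far its calls vary between draws was not tested. The filter of at least 10 tags in 4 libraries kept 1220 genes, more than the default, so no stricter filter was tried. No paired analysis was possible because the groups have no mouse number in common. Ephx2, Gclm, Nqo1, Prdx1 and Prdx6 had too few tags for the default filter, and the reason for their low counts was not tested.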

Other observations

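Markers of other liver cells gave these summed levels. Kupffer cell and macrophage markers (10 of 12 with tags, Cd68 and Lyz2 at 0) had group means of 805 to 872 CPM. Endothelial markers (9 of 9) had 662 to 874 CPM, highest in HF. Stellate cell and fibroblast markers (8 of 9, Acta2 at 0) ran from 1280 to 4536 CPM in HF and 1356 to 4420 CPM in HFW, against 1285 to 1537 CPM in N and 1035 to 1712 CPM in NW. Cholangiocyte markers (3 of 6, Krt19, Krt7 and Cftr at 0) reached at most 93.0 CPM, T and B cell markers (4 of 7) likewise at most 93.0 CPM, and red blood cell markers (3 of 6) 68.5 to 238 CPM. Their part in the results for the members was not tested.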
